A study of Mus musculus with 10 samples.

Results

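The genes described here are *Igf2* and its neighbours *Igf2os*, *H19* and *Ins2*, the receptors *Igf2r*, *Igf1r* and *Insr*, and the mRNA binding proteins *Igf2bp1*, *Igf2bp2* and *Igf2bp3*, measured on 10 one-colour Agilent arrays of E14 mouse ES cells (mESCs, 129/Ola background) grown on gelatin with Lif. Every array probe whose transcript accession was paired by name with one of the 10 genes was taken. This gave 12 probes for 9 genes, out of 55681 probes and 20972 named genes on the array. *H19* was paired with no probe by name. Probes A_55_P1961125 and A_55_P1961127 shared an accession that had no gene name here. Whether they read *H19* was not settled, and they are described apart from the set. The set was put together with earlier results of these arrays known, and *Igf2* and *Igf2os* were selected on the difference between *Hottip* gRNAs and control, so that difference and the one between *Hottip* gRNAs and *Hoxa13* gRNAs are described below without a test.

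The arrays compared 3 groups of biological replicates. In the first, mESCs were co-transfected with dCas9-VP160, a nuclease-dead Cas9 fused to an activation domain, and a pool of 5 gRNAs against the promoter of the lncRNA *Hottip* (4 arrays). In the second, the pool of 5 gRNAs was directed at the promoter of *Hoxa13* (3 arrays). The control (3 arrays) is labelled as control gRNAs. The methods name non-targeting gRNAs and dCas9 alone, so that the control may differ from the other groups by the lack of VP160 as well as by the gRNAs. Transfected cells of every group were kept under puromycin (2 μg/ml) over 24 hrs, and the RNA came from 48 hrs post-transfection. The cells are a transfected and selected population of one cell line, so cell number and RNA per cell cannot be told apart in these values.

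IGF2 is a secreted growth factor of the fetus and placenta. It signals through the IGF1 receptor and an isoform of the insulin receptor, whereas the IGF2 receptor takes it up for degradation. *Igf2* and the non-coding *H19* lie side by side on distal mouse chromosome 7 and are imprinted in opposite ways, *Igf2* being expressed from the paternal and *H19* from the maternal copy, and both are low in undifferentiated ES cells. *Igf2os* is transcribed antisense to *Igf2*, and the IGF2BP proteins bind *Igf2* mRNA and many other transcripts.

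The *Hottip* gRNAs are shown first because they define the group in which *Igf2* was high. Each is written 5′ to 3′ in lower case as the 20-base target read from the study's oligonucleotide list, followed in capitals by the PAM found next to it in the RefSeq promoter table (GRCm38.p6), whose windows of 300 bases reach from upstream of a start site to just past it. All 5 *Hottip* targets lay in the window of *Hottip*, within chr6:52262544-52262665 and between 121 and 220 bases upstream of the start site.
mHottip_pro_sg1: gcagtaagaaggtaaactcgGGG
mHottip_pro_sg2: tctcctgactttagcggtccTGG
mHottip_pro_sg3: tacccaggaccgctaaagtcAGG
mHottip_pro_sg4: ggatcagggaaggttttattGGG
mHottip_pro_sg5: gggatcagggaaggttttatTGG

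The same pool was compared with the windows of the IGF genes, on both strands and with NGG required. The table held 4 windows for *Igf2* and 1 each for *Igf2r*, *Igf1r*, *Igf2bp2* and *Igf2bp3*. Windows for *Igf2os*, *H19*, *Ins2*, *Insr* and *Igf2bp1* were not used here. Of 32851 windows, 1 held a perfect match to the *Hottip* pool and the next closest window had 3 mismatches. In the *Igf2* windows, from the most upstream start site to the most downstream, the closest match to the *Hottip* pool had 10, 8, 8 and 9 mismatches, and 92.1%, 18.2%, 18.2% and 55.9% of all windows had a match at least as close. In *Igf1r*, *Igf2r*, *Igf2bp2* and *Igf2bp3* the *Hottip* pool had 8, 9, 8 and 9 mismatches. The closest *Igf2* sites are shown with the bases that differ from the gRNA, and the PAM, in capitals, and describe these windows only.
Igf2 site at chr7:142661356-142661378 (+), closest to mHottip_pro_sg2: CctTGtCTGAttTgcggtccTGG
Igf2 site at chr7:142658953-142658975 (+), closest to mHottip_pro_sg4: ggaCcGAggaCggtGttGAGGGG

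Of the *Igf2* windows, the one at chr7:142658755-142659054 (minus strand, GRCm38.p6) held the most CpG dinucleotides, 24 in 300 bases with a GC content of 64.7%. The median over all windows was 7 CpG and 52.7% GC, and 19.98% of windows held as many. It is printed because it is the CpG-richest *Igf2* start site in the table, with each CpG in capitals.
Igf2 promoter window: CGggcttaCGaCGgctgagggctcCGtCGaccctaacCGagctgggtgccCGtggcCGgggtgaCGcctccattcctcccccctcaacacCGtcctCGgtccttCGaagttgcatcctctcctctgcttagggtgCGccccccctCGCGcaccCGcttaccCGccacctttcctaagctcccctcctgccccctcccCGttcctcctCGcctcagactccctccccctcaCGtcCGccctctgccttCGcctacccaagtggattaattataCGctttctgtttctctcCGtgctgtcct

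All levels below are log2 of the processed signal minus the array's 75th percentile, so a level of 0 is that percentile, and they are not comparable between probes. The 75th percentile itself was an intensity of 586 to 2572. The share of probes marked by the scanner software as well above background ranged from 31.9% to 41.4%. Differences were fitted with limma over all 10 arrays. Tested were probes with that mark on 3 or more arrays, and "called" means an adjusted p under 0.05. Slide 2 held all control arrays, all *Hottip* gRNA arrays and 1 *Hoxa13* gRNA array (replicate 3), and slide 1 held *Hoxa13* gRNA replicates 1 and 2. The spike-in slope was 1.16 on *Hoxa13* gRNA replicate 1 and 0.900 to 0.982 on the others.

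The targeted gene was looked at first. *Hottip* was paired with no probe and was not analysed here. *Hoxa13* had 2 probes. The brighter one (A_55_P1970075) lay between 3.17 and 4.16 on the 4 *Hottip* gRNA arrays, all well above background, between -4.80 and -3.68 on the 3 arrays labelled *Hoxa13* gRNAs, and between -5.84 and -3.46 in the control, with none of the last 2 groups well above background. The other probe gave the same picture. The arrays labelled *Hoxa13* gRNAs thus did not show the gene their gRNAs were aimed at, while the *Hottip* gRNA arrays did, and they are called the *Hoxa13*-labelled arrays from here on. Whether their labels are right was not tested, and every value given for them rests on that label.

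*Igf2* was read by 1 probe (A_55_P2118173). Its level was 1.17, 0.92, 1.82 and 1.09 on the *Hottip* gRNA arrays, -5.83, -5.10 and -4.44 in the control and -3.33, -4.42 and -5.22 on the *Hoxa13*-labelled arrays. All 4 *Hottip* gRNA arrays lay above all others, and the control and *Hoxa13*-labelled arrays overlapped. The processed signal was between 1795 and 5465 on the *Hottip* gRNA arrays against 41.9 to 55.0 in the control. Its spot was well above background in all 4 *Hottip* gRNA replicates and in none of the other 6 arrays, so its level there is an upper limit. The mean difference between *Hottip* gRNAs and control was 6.37 on the log2 scale (SE 0.51, n = 4 and 3), and the bound was an at least 26.3-fold higher signal. This bound sets each control array to the higher of the probe's own level and the lowest spot well above background there. Against the *Hoxa13*-labelled arrays the difference was 5.57 (SE 0.51), at least 21.9-fold.

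*Igf2os* (A_66_P116635) followed the same order. Its level was 2.81, 2.95, 2.82 and 2.05 on the *Hottip* gRNA arrays, -3.48, -4.08 and -2.19 in the control and -1.94, -2.18 and -2.36 on the *Hoxa13*-labelled arrays. Again the *Hottip* gRNA arrays lay apart from all others, and the other groups overlapped at control replicate 3. Its spot was well above background in 4 of 4 *Hottip* gRNA replicates, on 2 of 3 *Hoxa13*-labelled arrays and on no control array. The difference was 5.91 between *Hottip* gRNAs and control (SE 0.46), at least 47.7-fold, and 4.82 between *Hottip* gRNAs and the *Hoxa13*-labelled arrays (SE 0.46). *Igf2* and *Igf2os* overlap in the genome on opposite strands, and whether the labelling kept the strands apart was not stated.

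The control spots of *Igf2* and *Igf2os* were below the background mark, so the values that follow are no bounds. Within the rows of slide 2 the differences from control are a description only, since that contrast selected these genes. In row 1 (*Hottip* gRNA replicates 1 and 2 against control replicate 3) they were 5.49 for *Igf2* and 5.07 for *Igf2os*, and in row 2 (*Hottip* gRNA replicates 3 and 4 against control replicates 1 and 2) they were 6.91 and 6.22. When single arrays were dropped, the *Igf2* difference was between 6.02 and 6.71 and that of *Igf2os* between 5.49 and 6.44. With normexp background correction, which adds an offset to dim spots, the differences were smaller, 4.84 and 5.07 against control and 4.08 and 4.12 against the *Hoxa13*-labelled arrays. The at least folds belong to the processed signal and do not cover that setting.

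The third gene of this stretch, *Ins2*, which encodes insulin, gave a different picture. Its levels (A_55_P1988839) were -2.87, -3.26, -3.77 and -4.13 on the *Hottip* gRNA arrays, -3.92, -3.77 and -2.73 in the control and -2.87, -3.31 and -3.21 on the *Hoxa13*-labelled arrays. The 3 groups overlapped, and the probe was well above background on 1 array of 10, so it was not tested. Of the unnamed probes that may read *H19*, A_55_P1961125 was well above background on no array. A_55_P1961127 was at -2.75, 0.73, -0.08 and -0.45 on the *Hottip* gRNA arrays and -3.60, -1.50 and -2.51 in the control, which overlapped. Its difference was 1.90 from control (SE 0.77) and 2.71 from the *Hoxa13*-labelled arrays (SE 0.77), given without a test.

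**Figure D1:**
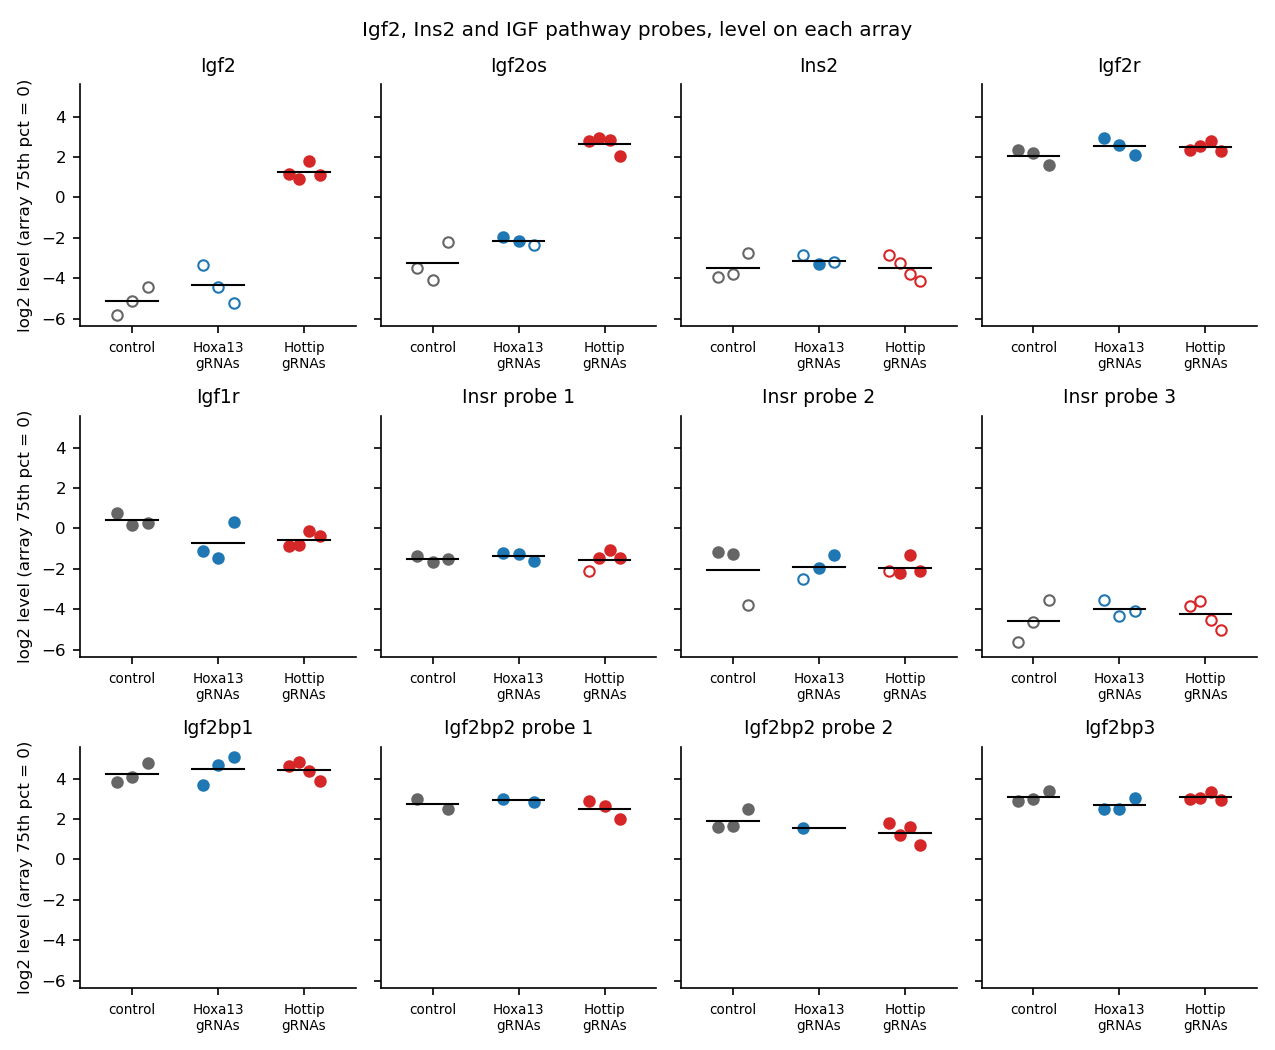
Log2 level of each of the 12 probes on each array (vertical axis, array 75th percentile at 0) for control, *Hoxa13*-labelled and *Hottip* gRNA arrays. Filled points were well above background, open points were not, and lines are group means. Only *Igf2* and *Igf2os* have their 4 *Hottip* gRNA arrays several units above the rest.

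Over the whole gene set, 10 of the 12 probes, from 8 genes, passed the filter on dim probes. In *Hottip* gRNAs against control 2 of these 10 were called, *Igf2* and *Igf2os*, both through the group where they are high, and 0.718% of all 22835 tested probes were called. In *Hottip* gRNAs against the *Hoxa13*-labelled arrays the same 2 were called, against 0.381% of all tested probes. Since these contrasts chose the genes, or share the *Hottip* gRNA arrays with the one that did, nothing is read from these counts. The groups did not overlap for 3 of the 10 tested probes in *Hottip* gRNAs against control (*Igf2*, *Igf2os* and *Igf1r*), where 13.2% of all tested probes did not, and for 2 in *Hottip* gRNAs against the *Hoxa13*-labelled arrays, where 17.4% of all tested probes did not. The median difference of the 10 probes was 0.06 against control and -0.03 against the *Hoxa13*-labelled arrays, beside -0.03 and -0.26 over all tested probes.

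The *Hoxa13*-labelled arrays against control formed a comparison that the choice of genes did not use, although its control arrays are those used for the choice. None of the 10 tested probes was called by limma, where 0.175% of all tested probes were, and 1 (*Igf1r*) had an unadjusted p under 0.05, beside 11% of all tested probes. *Igf2* and *Igf2os* count among the 10 only through the *Hottip* gRNA arrays, so no p is given for them. The *Igf2* difference was 0.80 (SE 0.54) between levels that were below the background mark on all 6 arrays. The *Igf2os* difference was 1.09 (SE 0.50), with 2 of the 6 arrays above that mark. The exact permutation tests below are two-sided, and the smallest p that 3 arrays against 3 can give is 0.1. On slide 2 alone, *Hoxa13*-labelled replicate 3 differed from the control mean by -0.10 for *Igf2* and 0.89 for *Igf2os*, and the 2 arrays of the other slide by 1.24 and 1.19.

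No probe of a receptor gene was called in any of the 3 comparisons. *Igf1r*, the main signalling receptor of IGF2, had levels of 0.77, 0.16 and 0.28 in the control, -0.87, -0.84, -0.11 and -0.38 on the *Hottip* gRNA arrays and -1.1, -1.45 and 0.33 on the *Hoxa13*-labelled arrays (A_66_P105801). The *Hottip* gRNA arrays all lay below the control arrays, and *Hoxa13*-labelled replicate 3 lay among the control arrays. The difference from control was -0.96 after *Hottip* gRNAs (SE 0.46) and was not called. It was -1.14 for the *Hoxa13*-labelled arrays (limma p = 0.0403, adjusted p = 0.448, exact permutation p = 0.3), made up of -0.07 for the array on the slide of the controls and -1.68 for the 2 arrays on the other slide.

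*Igf2r*, the scavenger receptor of IGF2 and itself an imprinted gene, was spotted 10 times on each array. Its mean over the spots was 2.33, 2.20 and 1.62 in the control, 2.34, 2.53, 2.81 and 2.29 on the *Hottip* gRNA arrays and 2.96, 2.57 and 2.10 on the *Hoxa13*-labelled arrays. All groups overlapped. The spread between spots of one array was 0.14 to 0.61 (SD) except on control replicate 3, where it was 1.51. The difference from control was 0.44 after *Hottip* gRNAs (SE 0.36) and 0.49 for the *Hoxa13*-labelled arrays (SE 0.38, adjusted p = 0.594, exact permutation p = 0.3).

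*Insr*, the insulin receptor, had 3 probes, of which the dimmest (A_55_P2173927) was well above background on no array. The brightest (A_55_P2172566) had levels of -1.64 to -1.34 in the control, -2.12 to -1.08 after *Hottip* gRNAs and -1.63 to -1.19 on the *Hoxa13*-labelled arrays. Its differences from control were -0.05 (SE 0.35) and 0.13 (SE 0.37, adjusted p = 0.897). The middle one (A_52_P494514) gave 0.12 and 0.13, with control replicate 3 at -3.77 and the other control arrays at -1.14 and -1.26.

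**Figure D2:**
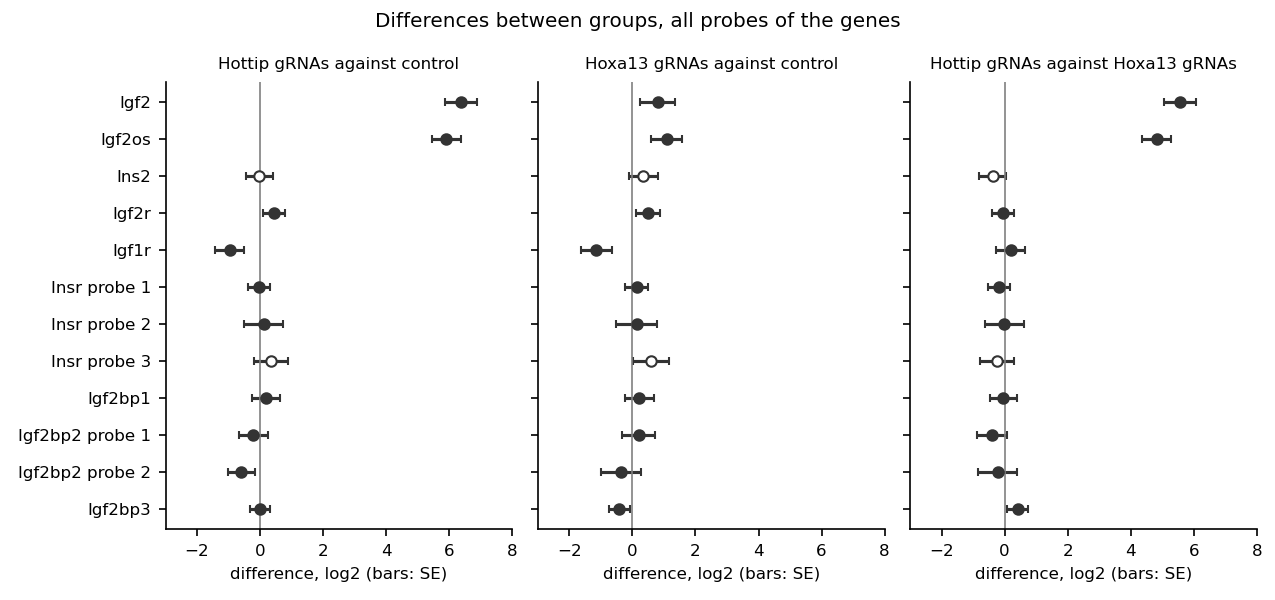
Difference between groups on the log2 scale (horizontal axis, bars are the limma SE) for the 12 probes in the 3 comparisons. Open points were not tested. *Igf2* and *Igf2os* stand at 6.37 and 5.91 against control and at 5.57 and 4.82 against the *Hoxa13*-labelled arrays, and the other probes lie between -1.14 and 0.60.

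The *Igf2* mRNA binding proteins were well above background on all arrays in all 3 groups. *Igf2bp1* (A_51_P497113) had levels of 3.83, 4.09 and 4.77 in the control, 4.60, 4.79, 4.40 and 3.87 after *Hottip* gRNAs and 3.66, 4.67 and 5.04 on the *Hoxa13*-labelled arrays. The groups overlapped, and the differences from control were 0.18 (SE 0.43) and 0.23 (SE 0.46, adjusted p = 0.852). *Igf2bp3* (A_52_P508974) lay between 2.87 and 3.36 in the control, 2.95 and 3.33 after *Hottip* gRNAs and 2.49 and 3.02 on the *Hoxa13*-labelled arrays, with differences from control of 0.00 (SE 0.32) and -0.41 (SE 0.35, adjusted p = 0.623).

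*Igf2bp2* had 2 probes, and spots marked as outliers left gaps in both. For the brighter one (A_51_P315682) control replicate 2, *Hoxa13*-labelled replicate 2 and *Hottip* gRNA replicate 1 were dropped from the fit, and the differences from control were -0.21 (SE 0.47) and 0.20 (SE 0.52, adjusted p = 0.891). The other (A_55_P2170737) kept 1 *Hoxa13*-labelled array and gave -0.59 (SE 0.42) after *Hottip* gRNAs and -0.37 for the single *Hoxa13*-labelled array, for which no test is given. That array lay just below the 3 control arrays. No other of the 12 probes was without overlap in this comparison, where 23.5% of tested probes with 2 or more arrays in each group did not overlap.

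By the order of its levels, *Igf2* thus had *Hottip* gRNAs highest and the *Hoxa13*-labelled and control arrays below, the latter pair not apart beyond their spread, and *Igf2os* had the same order. Profiles over the 10 arrays were compared with that of *Igf2*, each centred on its own mean, among 8640 named genes with a tested probe and a value on every array. This is a description, since *Igf2* was below the background mark on 6 of the 10 arrays and *Igf2os* was selected on the same values. The smallest root mean square differences were those of *Igf2os* (0.634), *Bhmt*, which encodes betaine-homocysteine methyltransferase (0.787), the transcription factor gene *Atoh1* (0.875), *Hoxa13* (1.08) and *Cdx2* (1.18), each taken at its tested probe closest to *Igf2*. For *Hoxa13* this was the dimmer probe, and by the brightest probe of each gene, a choice added after the data were seen, *Hoxa13* (1.22) ranked 7 and *Crispld2* (1.20) took the fifth place. All 5 were well above background in every *Hottip* gRNA replicate and in no control replicate. *Igf2r*, *Igf2bp3*, *Igf2bp1*, *Insr* and *Igf1r* ranked 1065, 1417, 2852, 3429 and 7558.

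**Figure D3:**
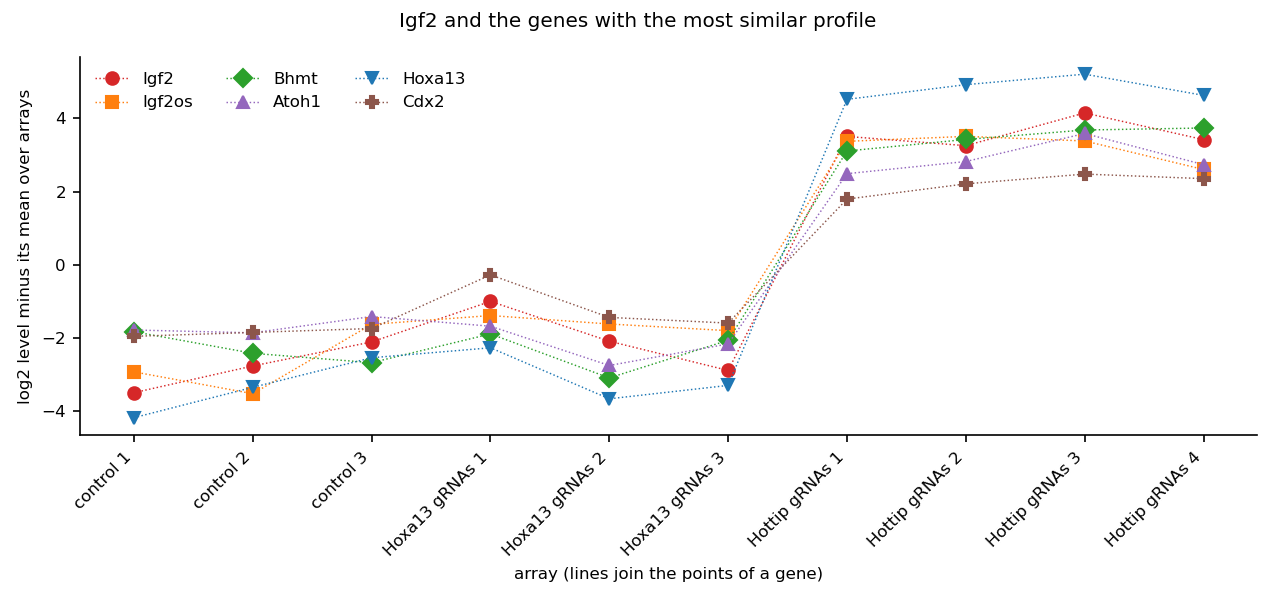
Log2 level minus its mean over the 10 arrays (vertical axis) for *Igf2* and the 5 genes of most similar profile by their closest tested probe (for *Hoxa13* the dimmer one), by array (horizontal axis). All 6 genes are high on the 4 *Hottip* gRNA arrays and low on the 6 others.

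A chosen list of neighbours of *Igf2* on distal chromosome 7 was looked at in map order, from *Ctsd* to *Nap1l4*. It was drawn up with earlier results of these arrays known and does not hold every gene of that stretch. Of the 19 listed neighbours, 18 had a probe and 13 were tested. In *Hottip* gRNAs against control, 3 were called higher and none lower, with a median of 0.13 over the 13, beside 0.718% of all tested probes called and their median of -0.03. On the *H19* side, *Tnnt3*, which encodes a fast skeletal muscle troponin T, rose by 3.83 (SE 0.32, adjusted p = 0.000435), at least 6.20-fold, and *Lsp1*, which encodes an actin-binding protein of leukocytes, rose by 3.57 (SE 0.40, adjusted p = 0.00338), at least 5.65-fold. *Lsp1* was well above background on the *Hottip* gRNA arrays alone and so was tested only through them, and it was also called with no filter on dim probes (adjusted p = 0.00823). *Tnnt3* was well above background on no control array and passed the filter only through the other groups. It too was called with no filter (limma adjusted p = 0.00106). With normexp the differences of *Tnnt3* and *Lsp1* were 2.31 and 2.24, a setting that the at least folds do not cover. On the *Ins2* side *Ascl2*, an imprinted transcription factor gene of the trophoblast, rose by 2.38 (SE 0.36, adjusted p = 0.0146). *Mrpl23*, which lies between *Tnnt3* and *H19*, differed by 0.13 (SE 0.43). *Th*, between *Ins2* and *Ascl2*, differed by 0.96 (SE 0.31, adjusted p = 0.330). *Cdkn1c* had the lowest difference, -0.79.

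Array by array, *Lsp1* was at -0.80, -0.90 and -1.20 on *Hottip* gRNA replicates 2, 3 and 4 and between -4.93 and -4.09 in the control. *Ascl2* was at 0.82, 1.51 and 1.20 on the same *Hottip* gRNA replicates and between -1.37 and -0.95 in the control. For both, the spot of *Hottip* gRNA replicate 1 was marked as an outlier and left out. The *Hottip* gRNA and control arrays were apart for both genes, as they were for 13.2% of all tested probes. *Tnnt3* was between -1.11 and -0.60 on all 4 *Hottip* gRNA arrays, -4.77 and -4.53 in the control and -2.45 and -1.80 on the *Hoxa13*-labelled arrays, so that all 3 groups were apart. Of all tested probes, 23.5% were apart between the *Hoxa13*-labelled and control arrays and 17.4% between the pools. The call of *Ascl2* was lost without control replicate 2 (adjusted p = 0.101), *Hottip* gRNA replicate 3 (0.0757) or *Hottip* gRNA replicate 4 (0.0597), on the slide with all groups alone (0.0595), in a fit of these 2 groups (0.0595), with the background mark required on all arrays (0.0811) and with the local median subtracted (0.0831), whereas *Lsp1* and *Tnnt3* were called without any one array.

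In the *Hoxa13*-labelled arrays against control, *Cdkn1c* was again lowest (-0.99). *Tnnt3* was the 1 of 13 tested neighbours called (2.61, SE 0.35, adjusted p = 0.0188, at least 2.68-fold with the control below background), beside 0.175% of all tested probes. That call was lost without control replicate 1 (adjusted p = 0.0623) or 2 (0.129) and without *Hoxa13*-labelled replicate 1 (0.0875), 2 (0.0926) or 3 (0.0569), and the difference was 1.34 with normexp (0.39), 1.56 with the deposited log2 values (0.556) and 1.13 with the local median subtracted. In all the call was lost in 13 of 24 alternatives. With no filter on dim probes, which *Tnnt3* did not pass through the control arrays, the limma adjusted p was 0.0459. A second, untested *Tnnt3* probe (A_55_P2088375) gave -0.25 there and 2.25 for *Hottip* gRNAs against control. Against the *Hoxa13*-labelled arrays, *Lsp1* (2.75, at least 4.72-fold, adjusted p = 0.0235) and *Ascl2* (2.29, adjusted p = 0.0324) were called higher after *Hottip* gRNAs, beside 0.381% of all tested probes called. *Nap1l4* was lowest there (-1.0). The *Lsp1* call was lost in 13 of 24 and the *Ascl2* call in 15 of 25 alternatives, among them several that left out 1 array. Both calls were also lost with no filter on dim probes (adjusted p = 0.0554 and 0.0763), a filter that *Lsp1* passed only through the *Hottip* gRNA arrays.

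**Figure D4:**
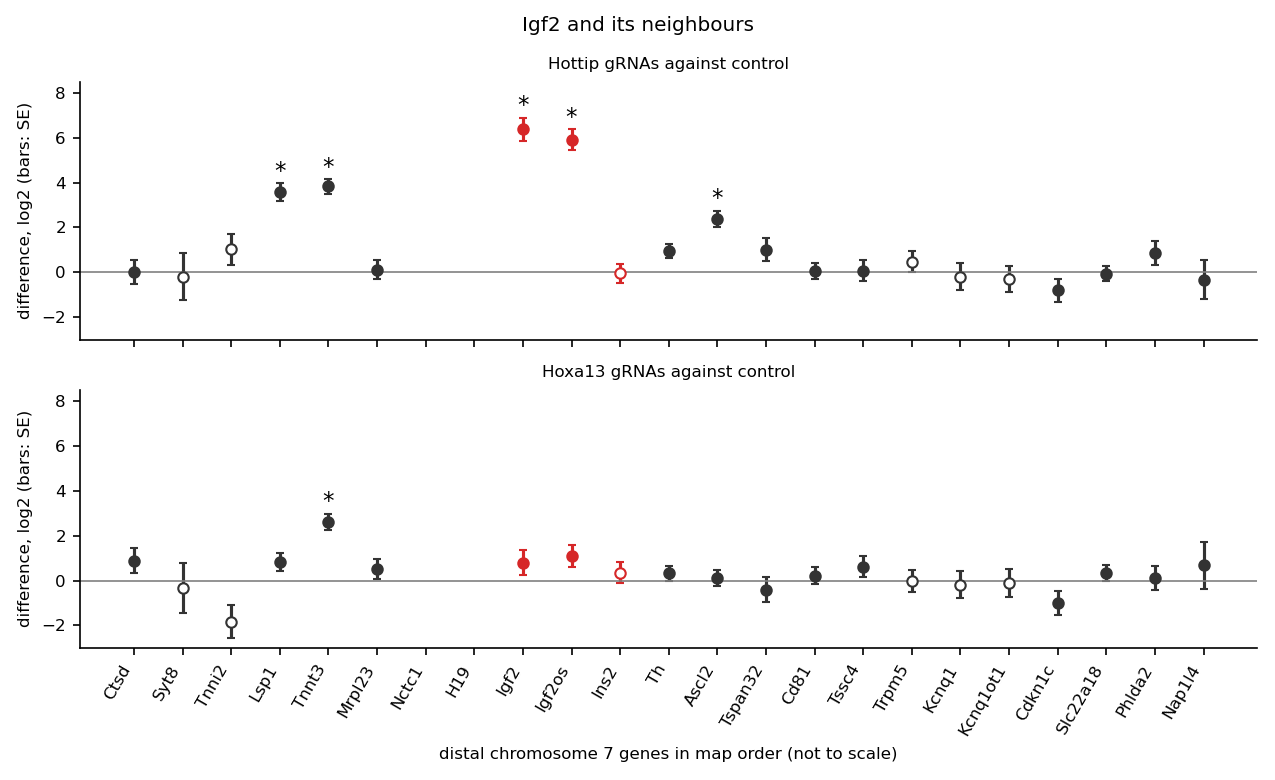
Difference from control on the log2 scale (vertical axis, bars are the limma SE) for *Igf2* and its listed neighbours in map order, after *Hottip* gRNAs (top) and for the *Hoxa13*-labelled arrays (bottom). Genes of the stretch that were not listed are not shown. Asterisks mark called probes and open points probes that were not tested. *Lsp1*, *Tnnt3*, *Igf2*, *Igf2os* and *Ascl2* are called in the top panel and *Tnnt3* alone in the bottom panel. *Igf2* and *Igf2os* were selected on the difference of the top panel, so nothing is read from their asterisks.

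Factors known to act on the imprint, the transcription or the mRNA of *Igf2* and *H19* were a list of 11 genes, 10 of them tested. None was called against control in either comparison by limma, and 1 in each had an unadjusted p under 0.05, beside 8.05% of all tested probes after *Hottip* gRNAs and 11% in the *Hoxa13*-labelled arrays. The highest in *Hottip* gRNAs against control was *Hmga2*, a chromatin protein gene whose product is known to act on IGF2BP2 expression (1.88, SE 0.36, adjusted p = 0.0513), and *Lin28b* was lowest (-0.46). The *Hmga2* levels were 3.41, 3.88 and 3.62 on *Hottip* gRNA replicates 1 to 3, with replicate 4 left out as an outlier, against 1.68 to 1.87 in the control and 1.19 to 1.77 on the *Hoxa13*-labelled arrays. *Hmga2* was thus apart from both other groups, beside 13.2% of all tested probes against control and 17.4% against the *Hoxa13*-labelled arrays. It was the 1 gene of the list called in *Hottip* gRNAs against the *Hoxa13*-labelled arrays (2.09, adjusted p = 0.0482). The call was lost in 20 of 25 alternatives. It was not made for the second *Hmga2* probe (A_55_P2043921, 2.65, adjusted p = 0.0709, and 1.36 against control). *Trim28* was lowest there (-0.80). In the *Hoxa13*-labelled arrays against control, *Trim28* was highest (1.12) and *Lin28b* lowest (-0.50). *Ctcf*, which encodes the insulator protein of the locus, differed by -0.03 after *Hottip* gRNAs, and *Zfp57* and *Dnmt1*, which keep the imprint, by -0.13 and -0.09.

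Other ligands and carriers of IGFs were a list of 11 genes, 5 of them tested, and none was called in any of the 3 comparisons. None had an unadjusted limma p under 0.05, beside 8.05%, 11% and 11.9% of all tested probes. *Igf1*, the other IGF, differed by 0.43 after *Hottip* gRNAs (SE 0.78). *Igfbp2*, an IGF binding protein gene bright on these arrays, differed by 0.43 (SE 0.56). The range was from *Igfbpl1* (-0.83) to *Igfals* (0.71) after *Hottip* gRNAs, from *Igfbp3* (-0.40) to *Igfbp2* (1.1) for the *Hoxa13*-labelled arrays, and from *Igfbp2* (-0.67) to *Igfals* (1.02) between the 2 pools of gRNAs.

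The proteases that cleave IGF binding proteins and their inhibitors were 5 genes, 3 of them tested and none called in any comparison. At an unadjusted limma p under 0.05 there were 0, 1 and 0 of 3, beside 8.05%, 11% and 11.9% of all tested probes. *Pappa2*, a protease gene near background here, was highest against control in both comparisons (1.24 and 1.41), with *Htra1* (0.44) and *Stc2* (0.35) lowest, and *Stc2* (0.17) and *Htra1* (-0.31) were the extremes between the pools.

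Signalling below the receptors was the largest list, 33 genes with 29 tested, and again none was called in the 3 comparisons. With an unadjusted limma p under 0.05 there were 1, 3 and 2 of the 29, beside 8.05%, 11% and 11.9% of all tested probes. After *Hottip* gRNAs 13 differences from control were positive and 16 negative, with a median of -0.11 beside -0.03 over all probes. *Pik3r1*, a regulatory subunit of PI3 kinase, was highest (0.86, adjusted p = 0.666), and *Grb14*, an adaptor that inhibits the insulin receptor, was lowest (-1.30, adjusted p = 0.612). For the *Hoxa13*-labelled arrays *Irs2*, an adaptor of both receptors, was highest (1.24, adjusted p = 0.447) and *Foxo4*, a transcription factor restrained by the pathway, was lowest (-1.24, adjusted p = 0.748). Between the pools *Akt1* (0.89) and *Grb14* (-1.50) were the extremes.

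**Figure D5:**
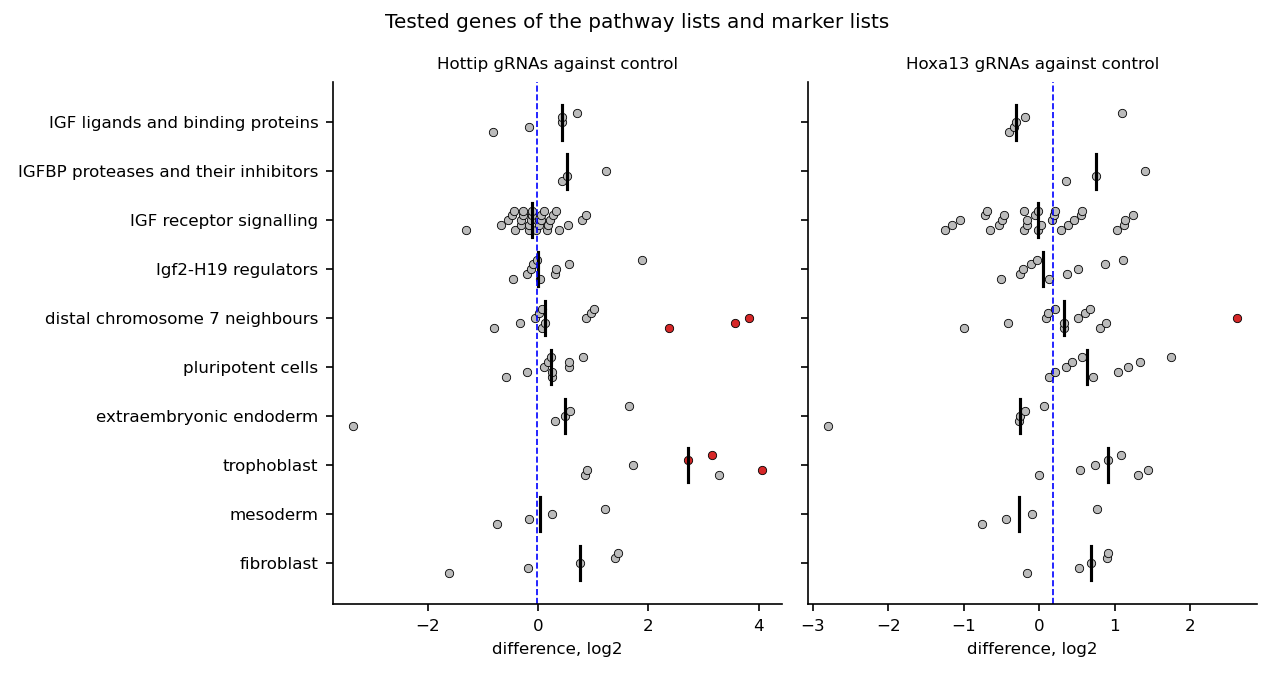
Difference from control on the log2 scale (horizontal axis) for the tested genes of each list, after *Hottip* gRNAs (left) and for the *Hoxa13*-labelled arrays (right). Red points were called, black bars are list medians and the dashed line is the median of all tested probes. Called points appear only among the distal chromosome 7 neighbours and, on the left, the trophoblast markers.

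The labelled cell type was checked against markers. All 10 pluripotency markers were well above background on every array, and none was called against control. Their differences had a median of 0.23 after *Hottip* gRNAs and 0.64 for the *Hoxa13*-labelled arrays, led by *Nanog* in the latter (1.74, adjusted p = 0.340). Over all 4773 bright probes, those with a mean level above 3, the medians were 0.15 and 0.63. *Igf2* is expressed in cell types other than ES cells, so markers of 4 of them are given beside it. Of 10 trophoblast markers, 7 were tested and 3 were called higher in *Hottip* gRNAs against control, beside 0.718% of all tested probes called. These were *Cdx2* (4.06, SE 0.39, adjusted p = 0.00105, at least 13.3-fold), *Krt7* (3.14, SE 0.43, adjusted p = 0.00684, at least 3.74-fold) and *Gata3* (2.72, SE 0.37, adjusted p = 0.00649). Against the *Hoxa13*-labelled arrays *Cdx2* (3.31, adjusted p = 0.00679) and *Gata3* (2.72, adjusted p = 0.0149) were called higher, and both calls were lost without *Hoxa13*-labelled replicate 2 (adjusted p = 0.062 and 0.0736). That of *Gata3* was also lost without replicate 3 (0.0619), on the slide with all groups alone (0.0716) and with the local median subtracted (0.137), and its call against control was lost with the local median subtracted (0.209). *Cdx2* and *Krt7* were well above background on no control array and reached the filter only with the *Hottip* gRNA arrays, and both were also called against control with no filter on dim probes (adjusted p = 0.00256 and 0.0167). The call of *Krt7* against control was lost without control replicate 2 (adjusted p = 0.0538). The mean level of the 8 trophoblast markers with a value on every array was -1.46 to -1.11 on the *Hottip* gRNA arrays, -3.16 to -2.52 in the control and -2.73 to -1.77 on the *Hoxa13*-labelled arrays. *Elf5*, *Tpbpa* and *Hand1* were well above background on no array.

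The other marker lists had no called gene against control by limma. For extraembryonic endoderm, 5 of 10 markers were tested, the mean level was -2.45 to -2.11 on the *Hottip* gRNA arrays and -3.09 to -1.28 in the control, and *Afp*, *Apoa1* and *Apob* were well above background on no array. For mesoderm, 4 were tested, the mean level was -3.23 to -2.54 and -3.67 to -1.41, and *Mixl1*, *Mesp1*, *Tbx6* and *Meox1* were well above background on no array. For fibroblasts, 5 were tested, the mean level was -3.31 to -2.85 and -3.78 to -3.02, and *Lum* and *Postn* were well above background on no array. With an unadjusted limma p under 0.05 there were 2 of 5, 1 of 4 and 1 of 5 tested genes in these lists after *Hottip* gRNAs, beside 8.05% of all tested probes. The 2 genes of extraembryonic endoderm differed in opposite directions. The part that any such cells had in the levels of *Igf2* and *Igf2os* was not tested.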

How the data were processed

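Expression was measured on one-colour Agilent arrays (Cy3). The authors deposited Feature Extraction 11.5.1.1 scanner files, whose processed signal is a spot intensity after background subtraction and, on all arrays but *Hottip* gRNA replicates 3 and 4, spatial detrending. A second deposited table held log2 values, which ranked the probes as the scanner values do and was used only as an alternative. Here, outlier and control spots were left out, log2 intensities were centred on the array's 75th percentile and spots of a probe were averaged. The 3 groups were fitted with limma 3.58.1 (R 4.3.3, lmFit and eBayes), with Benjamini-Hochberg adjustment over probes well above background on at least 3 arrays, after a test on simulated data. The number of arrays limits the precision. The members and gene lists were chosen with earlier results of these arrays known. A gene is given by its brightest probe, except in the ranking of profiles. Named from other lists were all called genes, and the highest and lowest in each comparison for the lists other than cell markers. *Mrpl23*, *Th*, *Igf1*, *Ctcf*, *Zfp57*, *Dnmt1* and *Nanog* were named outside this rule after their values were seen. Replicate numbers were not used as pairs in the reported fit. Correlations of same-numbered arrays were -0.31 to 0.11. Differently numbered arrays were not set beside them, so whether the numbers pair the arrays was not tested. Alternatives covered background, normalisation, filters, slide and array left out. Slide row as a blocking term, and a percentile over spots that were never outliers, were added after the data were seen. Promoter windows come from RefSeq (GRCm38.p6). The *Hoxa13* gRNA sequences and their matches are not reported here.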

Additional observations from a re-analysis of the deposited data

Results flagged for a closer look

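In groups of 4 arrays, the gap of the most distant array to its nearest neighbour was divided by the range of the group, and 2 of the 15 groups tested passed Dixon's 95% critical value. For *Igf2os* (A_66_P116635), *Hottip* gRNA replicate 4 lay below the others, with a ratio of 0.85. For the *Insr* probe A_52_P494514, *Hottip* gRNA replicate 3 lay above the others, with a ratio of 0.876. Chance gives about 1 such group in 20.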

How the results depend on the processing

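Of 888 recomputed differences of member probes, 791 kept their sign and 97 changed it, 33 in *Hottip* gRNAs against control, 19 in the *Hoxa13*-labelled arrays against control and 45 between the pools. The reported differences that changed sign were at most 0.35, 0.80 and 0.25 in size, and those of *Igf2* and *Igf2os* in the comparisons of *Hottip* gRNAs were not among them. In 2 cases a called difference was no longer called, and in 0 cases an uncalled one became called. *Igf2* and *Igf2os* were selected on *Hottip* gRNAs against control, so nothing is read from their calls in the comparisons of *Hottip* gRNAs. With each array left out, these 2 member probes were called in *Hottip* gRNAs against control and against the *Hoxa13*-labelled arrays, and 0 in the *Hoxa13*-labelled arrays against control. The *Igf2* difference then ranged over 6.02 to 6.71, 5.13 to 6.07 and 0.30 to 1.24 in these comparisons, and that of *Igf2os* over 5.49 to 6.44, 4.72 to 5.02 and 0.68 to 1.62. Requiring a probe to be well above background on all arrays left *Igf2* and *Igf2os* untested, so 0 member probes were called in either comparison of *Hottip* gRNAs. Against the *Hoxa13*-labelled arrays, 1 was called on the slide with all groups alone, where *Igf2os* (5.02) was not, and 1 with the replicate number as a block, where *Igf2* (5.63) was not. With this replicate block, 13, 2 and 8 of all probes were called against control after *Hottip* gRNAs, in the *Hoxa13*-labelled arrays and between the pools, instead of 164, 40 and 87. Over all alternatives these counts ranged over 5 to 414, 0 to 88 and 0 to 165, and with 1 array left out over 56 to 240, 3 to 130 and 11 to 116. Each was highest without control replicate 3, and lowest without control replicate 2 (56 and 3, the latter also without *Hoxa13*-labelled replicate 3) or *Hoxa13*-labelled replicate 2 (11). With the block, the calls against control after *Hottip* gRNAs were lost for *Lsp1* (adjusted p = 0.165), *Ascl2* (0.336), *Cdx2* (0.0554), *Gata3* (0.126) and *Krt7* (0.108), and those against the *Hoxa13*-labelled arrays for *Cdx2* (0.102) and *Gata3* (0.125).

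The 19 sign changes in the *Hoxa13*-labelled arrays against control, were as follows. *Igf2* became -0.10 with the slide as a block and on the slide with all groups alone. *Insr* (A_55_P2172566) became -0.11 with normexp, -0.16 with the deposited log2 values, -0.14 with the slide as a block and alone, and -0.84 with the local median subtracted. *Insr* (A_52_P494514) became -0.10 with normexp, -0.045 (deposited values), and ranged over -0.73 to 0.59 with each array left out, negative without control replicate 3 and (-0.17) without *Hoxa13*-labelled replicate 3. *Igf2bp1* became -0.47 (normexp), -0.39 (quantile normalisation) and -0.82 (deposited values), and ranged over -0.065 (without *Hoxa13*-labelled replicate 3) to 0.62. *Igf2bp2* (A_51_P315682) became -0.14 (normexp) and -0.086 (quantile), and ranged over -0.046 (without control replicate 3) to 0.44, and A_55_P2170737 became 0.012 (normexp). The cause was not tested. Among called probes, the share higher in the *Hoxa13*-labelled arrays than in control was 35.0%, and 72.1% with normexp and 80.7% with the local median subtracted. After *Hottip* gRNAs it was 59.1%, and 82.1% with the local median subtracted. Signal near background limits *Igf2* on all arrays without *Hottip* gRNAs, and *Igf2os* on the control arrays and *Hoxa13*-labelled replicate 3, to an upper bound.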
